A study of Homo sapiens with 25 samples.

Results

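GATA6, CEBPA, ELF3, EHF, KLF5, GRHL2, TFAP2A and ETV1 encode transcription factors of lung and other epithelia. They were chosen by name, 8 of 19974 protein-coding genes, and every peak overlapping a gene body plus 50 kb on either side (its window) was counted. ChIP-seq, which sequences the DNA that an antibody brings down from fixed chromatin, had been done on untreated cultures of 4 cell lines from human lung adenocarcinomas, HCC364, NCI-H441, NCI-H2087 and NCI-H358, grown in RPMI medium with serum. Antibodies to NKX2-1, H3K27ac (a histone mark of active promoters and enhancers) and H3K4me1 (a mark of enhancers) were used in all 4 lines. NCI-H2087 alone also had FOXA1, FOXA2, SOX2, c-Jun, EP300, CTCF, RNA polymerase II (RNAPolII) and the promoter mark H3K4me3. Each pair of line and antibody is 1 library with 1 peak list, 20 lists in all, so no value below has a replicate error and no test of a difference is possible. Values are set beside those of all protein-coding genes, and intervals are exact 95% Clopper-Pearson intervals that cover counting error only.

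NKX2-1 is the homeodomain factor that marks the lung and thyroid lineages and is often retained in lung adenocarcinoma. It shares enhancers with the forkhead factors FOXA1 and FOXA2, which can open compact chromatin. GATA6 and CEBPA take part in alveolar differentiation, ELF3 and EHF are ETS factors restricted to epithelia, KLF5 is a zinc-finger factor of epithelial progenitors, and GRHL2 maintains junction genes such as CDH1. TFAP2A is an AP-2 factor of ectodermal and other epithelia, and ETV1 is an ETS factor of the PEA3 group that acts downstream of FGF and MAP kinase signals.

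As a check of the lines, H3K27ac lay within 1 kb of the start of all 8 epithelial markers (EPCAM, CDH1, KRT8, KRT18, KRT19, CLDN4, CLDN7 and ESRP1) in each NCI line, and of 6 in HCC364, where CLDN7 and ESRP1 had none. Of 5 lung markers, NKX2-1, NAPSA and FOXA1 were marked in all 4 lines, SFTPB in all but NCI-H358 and FOXA2 in all but NCI-H441. None of 3 endothelial or 3 neuroendocrine markers was marked in any line, and 2 of 6 mesenchymal markers (ZEB1 and COL1A1) were marked in every line. Of 4 immune markers, CD3E was marked in 3 lines and CD14 in HCC364, and PTPRC and SPI1 in none. Over all protein-coding genes, 56.2% (NCI-H441) to 58.7% (HCC364) had H3K27ac within 1 kb of a start in a line. A marked start is therefore common, and the marker counts are only a rough check. The lists held between 7406 (EP300) and 121789 (H3K4me1 in HCC364) peaks, so a peak is more easily found in some lists than in others.

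Promoter sequences show what lies at the starts that the results turn on. They come from RefSeq on GRCh38.p14, run 5′ to 3′ on the gene's strand and span 250 bases before to 50 bases from the start. Capitals mark matches on either strand to CACTTNA (an NKX2-1 type motif), TGTTTAC (forkhead), TGANTCA (AP-1), ACAAAG (SOX) or GGGCGG (a GC box), which were found in 10.2%, 3.42%, 7.71%, 16.1% and 45% of 35116 promoters of the same length. ELF3 (chr1:202010337-202010636, + strand) and ETV1 (chr7:13991376-13991675, - strand) are shown because NKX2-1 peaks of all 4 lines overlapped them, EHF (chr11:34624007-34624306, + strand) and KLF5 (chr13:73058755-73059054, + strand) because they hold CACTTGA, present in 2.48% of promoters, and CEBPA (chr19:33302485-33302784, - strand) because NKX2-1 peaks overlapped it in no line.
ELF3: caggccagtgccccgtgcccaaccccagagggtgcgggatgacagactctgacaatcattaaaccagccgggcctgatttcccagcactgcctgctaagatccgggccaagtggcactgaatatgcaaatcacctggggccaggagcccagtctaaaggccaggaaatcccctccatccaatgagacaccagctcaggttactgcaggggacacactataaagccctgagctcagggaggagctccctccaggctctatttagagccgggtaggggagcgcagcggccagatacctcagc
ETV1: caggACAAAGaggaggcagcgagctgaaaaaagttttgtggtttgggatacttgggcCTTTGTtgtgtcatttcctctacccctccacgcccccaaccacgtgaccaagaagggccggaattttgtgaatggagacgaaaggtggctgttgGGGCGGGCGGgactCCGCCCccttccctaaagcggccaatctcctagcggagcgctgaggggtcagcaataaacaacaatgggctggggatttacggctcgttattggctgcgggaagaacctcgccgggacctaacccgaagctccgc
EHF: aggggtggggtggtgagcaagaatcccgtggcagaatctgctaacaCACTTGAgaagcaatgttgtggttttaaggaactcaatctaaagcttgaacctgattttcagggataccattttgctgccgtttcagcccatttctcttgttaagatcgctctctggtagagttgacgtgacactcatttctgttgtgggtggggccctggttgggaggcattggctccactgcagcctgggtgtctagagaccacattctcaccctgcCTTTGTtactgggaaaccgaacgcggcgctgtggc
KLF5: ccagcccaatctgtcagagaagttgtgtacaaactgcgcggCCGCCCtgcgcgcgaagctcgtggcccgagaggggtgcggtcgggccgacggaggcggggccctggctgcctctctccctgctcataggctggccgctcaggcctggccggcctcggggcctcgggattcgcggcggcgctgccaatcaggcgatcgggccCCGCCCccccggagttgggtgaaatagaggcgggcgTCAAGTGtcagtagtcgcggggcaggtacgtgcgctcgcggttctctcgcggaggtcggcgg
CEBPA: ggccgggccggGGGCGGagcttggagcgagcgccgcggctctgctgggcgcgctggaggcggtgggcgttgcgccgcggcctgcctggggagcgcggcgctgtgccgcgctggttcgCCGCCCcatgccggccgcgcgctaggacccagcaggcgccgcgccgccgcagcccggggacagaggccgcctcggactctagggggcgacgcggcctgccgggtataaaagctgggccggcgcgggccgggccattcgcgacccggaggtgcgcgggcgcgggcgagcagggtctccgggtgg
The ELF3 stretch, overlapped by 11 of the 20 lists, held none of the letters searched. The ETV1 stretch, overlapped by 13 lists including SOX2, held ACAAAG 2 times and GGGCGG 3 times (a pair of them overlapping) and no CACTTNA. ETV1 has other listed starts that are not printed. The stretches of those at 13990702 and 13990706, also overlapped by NKX2-1 peaks of 4 lines, each held 1 CACTTNA. In EHF the CACTTGA begins at position -204 from the start, and the stretch was overlapped by NKX2-1 peaks of NCI-H358, NCI-H441 and HCC364. In KLF5 it lies on the reverse strand with its first base at position -12, and the stretch was overlapped by NKX2-1 peaks of NCI-H2087 and NCI-H358. The stretch of the other listed KLF5 start, at 73054976 and not printed, held CACTTNA 2 times and was overlapped by NKX2-1 peaks in no line. The CEBPA stretch, 80.7% G and C, was overlapped by 1 list, H3K4me3. A match to letters is a description of the sequence and not a binding site.

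NKX2-1 peaks lay at all 8 genes in NCI-H2087, NCI-H441 and HCC364 and at 7 in NCI-H358, where 90.4% of all genes had one, against 92.9% in NCI-H2087, 93.3% in NCI-H441 and 94.8% in HCC364. In all, 69 NKX2-1 peaks were found at the genes in HCC364, 90 in NCI-H441, 80 in NCI-H2087 and 84 in NCI-H358. The length covered by NKX2-1 peaks per 100 kb had a median over the 8 genes that was 1.45 times that of all genes in HCC364, 1.79 times in NCI-H441, 2.02 times in NCI-H2087 and 2.72 times in NCI-H358. For H3K27ac the same ratio was 2.08 in HCC364, 2.18 in NCI-H441, 2.00 in NCI-H2087 and 3.39 in NCI-H358. For H3K4me1 it was 1.85 in HCC364, 1.85 in NCI-H441, 1.58 in NCI-H2087 and 2.46 in NCI-H358. The 8 genes ranged from none of a window covered to one of the most densely bound windows in the genome.

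**Figure D1:**
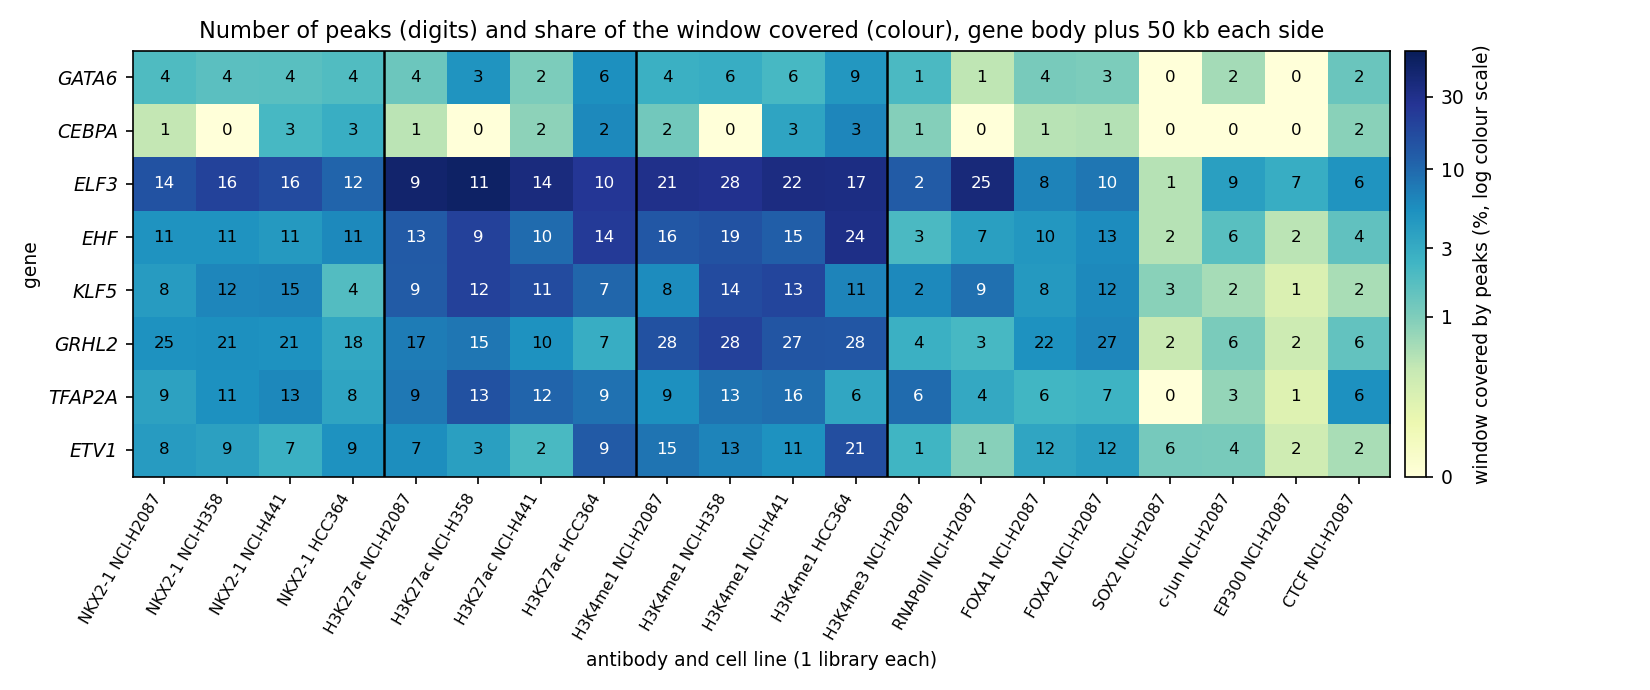
Number of peaks (digits) and percentage of the window covered by peaks (colour, log scale) for each gene (rows) in each of the 20 libraries (columns). ELF3 is dark in every NKX2-1, H3K27ac and H3K4me1 column, with 25.2% to 49.9% of its window under H3K27ac, and CEBPA has no NKX2-1, H3K27ac or H3K4me1 peak in NCI-H358.

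A line was set apart at a gene when its covered length, scaled to the median gene of its list, lay at least 2-fold above the highest or below the lowest of the other 3 lines. Over 24 combinations of antibody, line and direction the 8 genes had 7 such calls, 0.875 per gene, against 0.896 per gene over all protein-coding genes. The number of calls was therefore at the background, and the single calls given below describe these libraries only.

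Regions merged over the NKX2-1 lists of the 4 lines numbered 124 at the 8 genes, of which 37 (29.8%, 22.0 to 38.7%) were bound in all 4 lines, against 22.3% (22.1 to 22.5%) of 145799 regions in the genome. Of the rest, 28 were bound in 3 lines, 21 in 2 and 38 in 1. At least 1 region bound in all 4 lines lay at 7 of 8 genes, where 80.5% of all genes did. GRHL2 had 10 such regions, ELF3 9, ETV1 5, EHF and TFAP2A 4 each, KLF5 3, GATA6 2 and CEBPA none, and the median gene had 2. Regions found in 3 lines were missing in HCC364 at 17 sites, in NCI-H358 at 6, in NCI-H2087 at 3 and in NCI-H441 at 2, of 28 in all. Genome-wide, of 24956 such regions, 8168 were missing in HCC364, 8586 in NCI-H358, 5704 in NCI-H2087 and 2498 in NCI-H441, so there NCI-H358 was missing most often. Over base pairs of the 8 windows, the pairs of lines with HCC364 had NKX2-1 Jaccard indices (shared over joint length) of 0.389 to 0.463, and the other 3 pairs 0.542 to 0.588. Genome-wide the pairs with HCC364 had 0.351 to 0.403 and the other 3 pairs 0.397 to 0.470. Of the 124 regions, 53 had their centre in the gene body and 71 in the flanks, and 9 lay within 1 kb of a start.

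**Figure D2:**
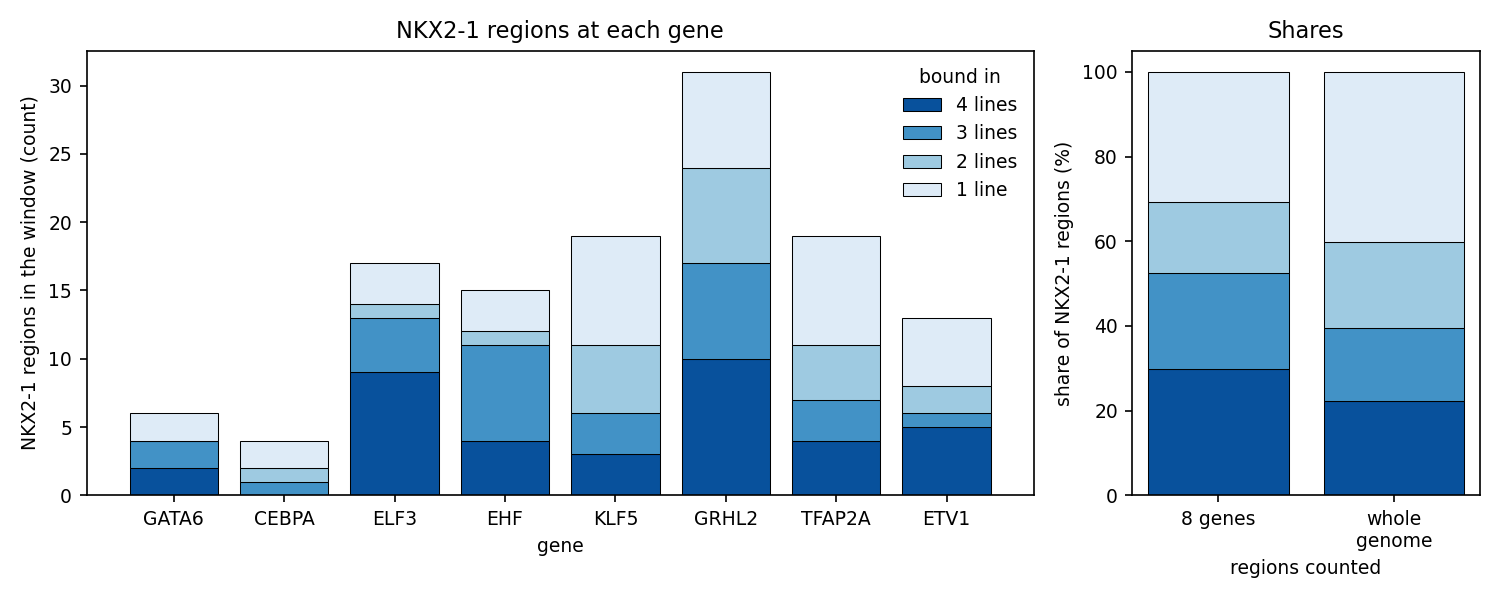
Left, number of merged NKX2-1 regions in each gene's window, stacked by the number of lines in which they were bound; right, the same as a percentage for the 8 genes together and for all regions of the genome. Regions bound in all 4 lines make up 29.8% at the genes and 22.3% genome-wide, and CEBPA has none.

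ELF3, an ETS factor of epithelial differentiation (chr1:202010587-202017183), was the most densely occupied of the 8. It had 12 NKX2-1 peaks in HCC364, 16 in NCI-H441, 14 in NCI-H2087 and 16 in NCI-H358. They covered 10.7% of the window in HCC364, 16.7% in NCI-H441, 15.1% in NCI-H2087 and 20.1% in NCI-H358. This density exceeded that of 98.8% of genes in HCC364 and of 99.9% to 99.99% in the other 3 lines. H3K27ac covered 25.2% of the window in HCC364, 36.3% in NCI-H441, 45.3% in NCI-H2087 and 49.9% in NCI-H358. Both antibodies were thus lowest in HCC364 and highest in NCI-H358 at this gene, by less than the 2-fold that sets a line apart. In NCI-H2087 the whole gene body lay under RNAPolII, with 25 RNAPolII peaks over 37.5% of the window, and under an H3K4me3 peak 11.3 kb wide, wider than 99.95% of H3K4me3 peaks. Among the ELF3 regions bound by NKX2-1 in all 4 lines, that with the highest mean fold over background lay 47.1 kb after the start (chr1:202056243-202059056), with folds of 30.9 in HCC364, 36.4 in NCI-H441, 37.3 in NCI-H2087 and 34.9 in NCI-H358. It carried H3K27ac and H3K4me1 in all 4 lines and, in NCI-H2087, FOXA1, FOXA2, c-Jun and EP300. Folds are the authors' own and rank peaks within a list. Where folds of several lines are given, here and below, they do not measure a difference between lines. RNPEP and TIMM17A lie in the same window before ELF3, and ELF3-AS1 ends within its promoter, so signal there cannot be given to a single gene.

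EHF, the other epithelial ETS factor (chr11:34621093-34663288), had 11 NKX2-1 peaks in each line. They covered 6.07% of the window in HCC364, 4.38% in NCI-H441, 4.96% in NCI-H2087 and 5.01% in NCI-H358. Only 4 of its 15 regions were bound in all 4 lines, so equal counts did not mean the same sites. H3K4me1 covered 31.6% of the window in HCC364, against 12.0% in NCI-H441, 13.6% in NCI-H2087 and 14.9% in NCI-H358. Scaled to the median gene of each list that was 5.71 times in HCC364 and 2.09 to 3.13 times in the other 3 lines, short of 2-fold above the highest of them. The region with the highest mean fold lay 48.9 kb after the nearest listed start (chr11:34680913-34682109), outside the gene, with 40.6-fold in HCC364 and 17.4 to 24.9-fold in the others, and had H3K27ac in all 4 lines. In NCI-H2087 the strongest H3K4me3 peak lay 2.53 kb before the first of the listed starts, near the lower annotated end of the gene.

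ETV1 (chr7:13891229-13991425) had less of its window under H3K27ac than ELF3 or EHF in each of the 4 lines. It had 9 NKX2-1 peaks in HCC364, 7 in NCI-H441, 8 in NCI-H2087 and 9 in NCI-H358. H3K27ac covered 12.8% of the window in HCC364, against 2.07% in NCI-H441, 5.55% in NCI-H2087 and 3.84% in NCI-H358. In HCC364 1 H3K27ac peak spanned 14.4 kb over the start, wider than 99.7% of the peaks of that list, against 2.67 kb in NCI-H441, 4.98 kb in NCI-H2087 and 4.30 kb in NCI-H358. The acetylated share was thus highest in HCC364, though not by 2-fold after scaling to the median gene. The shared NKX2-1 region with the highest mean fold at ETV1 was in its gene body, 40.2 kb after the start (chr7:13945392-13947029). Its folds were 49.3 in HCC364, 31.6 in NCI-H441, 25.9 in NCI-H2087 and 34.7 in NCI-H358. It carried H3K4me1 in all 4 lines but H3K27ac in HCC364 alone, and in NCI-H2087 it overlapped FOXA1, FOXA2, SOX2, c-Jun and EP300 together.

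KLF5 (chr13:73054976-73077538) had 4 NKX2-1 peaks in HCC364, against 15 in NCI-H441, 8 in NCI-H2087 and 12 in NCI-H358. The covered share was 1.83% of the window in HCC364, against 6.40% in NCI-H441, 4.16% in NCI-H2087 and 6.34% in NCI-H358. HCC364 was thus the lowest line, at 0.405 of the lowest of the other 3 after scaling, which set it apart by the 2-fold rule, met in this direction by 3.85% of genes for HCC364. With 10 kb flanks the ratio was 0.509 and the call was not made, and with the 20000 peaks of highest q in each list HCC364 was not the lowest line (1.28). The sites HCC364 kept included the 3 regions bound in all 4 lines, among them 1 lying 31.8 kb after a listed start (chr13:73090049-73091645) at 26.6-fold in HCC364 and 10.5 to 23.8-fold in the others. A region 7.06 kb after a start had neither an NKX2-1 nor an H3K27ac peak in HCC364, against NKX2-1 at 16.1-fold in NCI-H441, 22.2-fold in NCI-H2087 and 19.2-fold in NCI-H358. H3K27ac still covered 12.9 kb of the window in HCC364, against 20.7 kb in NCI-H441, 15.3 kb in NCI-H2087 and 25.4 kb in NCI-H358. In NCI-H2087 RNAPolII covered 44.1% of the KLF5 gene body, where the median gene had 0.639%. PIBF1 lies in the same window.

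GRHL2 (chr8:101492439-101681200) had the most NKX2-1 peaks, 18 in HCC364, 21 in NCI-H441, 25 in NCI-H2087 and 21 in NCI-H358, in the longest window. No start of GRHL2 was listed in the promoter table, so distances run from its lower-coordinate end, which GRHL2-DT overlaps, and NCALD lies in the same window. No H3K27ac peak lay over that end in HCC364, against peaks of 57.5-fold in NCI-H441, 33.7-fold in NCI-H2087 and 62.4-fold in NCI-H358. NKX2-1 was likewise not bound there in HCC364, against 16.5-fold in NCI-H441, 14.9-fold in NCI-H2087 and 16.2-fold in NCI-H358. Across the window H3K27ac covered 2.89% in HCC364, against 5.09% in NCI-H441, 7.26% in NCI-H2087 and 8.12% in NCI-H358. The HCC364 value was 0.426 of the lowest other line after scaling, a call made in this direction for 5.48% of genes, and 0.576 without scaling, where it was not made. H3K4me1 cover had the same order of lines, but HCC364 lay close to NCI-H441. HCC364 had 28 H3K4me1 peaks over 14.0% of the window, against 14.3% in NCI-H441, 15.2% in NCI-H2087 and 20.5% in NCI-H358. After scaling, HCC364 (2.49) was not the lowest line, since NCI-H441 had 2.46. NKX2-1 was not absent from the whole window in HCC364. A region 46.2 kb before that end (chr8:101445857-101446638) was bound at 54.1-fold in HCC364, 20.3-fold in NCI-H441, 14.2-fold in NCI-H2087 and 9.39-fold in NCI-H358.

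TFAP2A (chr6:10396677-10419659) had 8 NKX2-1 peaks in HCC364, 13 in NCI-H441, 9 in NCI-H2087 and 11 in NCI-H358. The H3K4me1 cover was 3.35% of the window in HCC364, against 9.24% in NCI-H441, 5.46% in NCI-H2087 and 8.48% in NCI-H358. At 0.498 of the lowest other line it just met the 2-fold rule, as 8.24% of genes did for HCC364, and it missed the rule at 100 kb flanks, at a stricter q and without scaling, and with 20000 peaks per list HCC364 was not the lowest line (2.09). Its strongest region shared by all lines by mean fold lay 32.4 kb before a start (chr6:10451613-10452429), with folds of 13.2 to 22.9 and H3K27ac in all 4 lines, and in NCI-H2087 overlapped none of the 5 partner factors but did overlap RNAPolII. TFAP2A-AS1 and TFAP2A-AS2 lie within the gene.

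GATA6, a zinc-finger factor of endoderm (chr18:22169589-22202528), was below the median gene in NKX2-1 cover. It had 4 NKX2-1 peaks in each line, covering 1.88% of the window in HCC364, 1.70% in NCI-H441, 1.95% in NCI-H2087 and 1.67% in NCI-H358. That was 0.640 to 0.937 of the median gene. H3K27ac covered 5.40% in HCC364, 1.05% in NCI-H441, 1.30% in NCI-H2087 and 4.90% in NCI-H358, so NCI-H358 and HCC364 lay above the other lines. No NKX2-1 peak lay within 5 kb of its start, and the highest shared region lay 45.4 kb after it (chr18:22214586-22215317) at 30.4-fold in HCC364, 27.1-fold in NCI-H441, 24.6-fold in NCI-H2087 and 17.0-fold in NCI-H358. The region was acetylated in NCI-H2087, NCI-H358 and HCC364 but not in NCI-H441.

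CEBPA, a bZIP factor of alveolar and other differentiated cells (chr19:33299934-33302534), was the least occupied. It had no NKX2-1, H3K27ac or H3K4me1 peak in NCI-H358. NKX2-1 peaks numbered 1 in NCI-H2087, 3 in NCI-H441 and 3 in HCC364, and none lay over the gene. For all 3 antibodies NCI-H358 was set apart as lower by the 2-fold rule, as it was for 6.42% (NKX2-1), 3.98% (H3K27ac) and 6.55% (H3K4me1) of genes. The NKX2-1 and H3K27ac calls were not made with 10 kb or 100 kb flanks, and none of the 3 was made with 20000 peaks per list. The 4 NKX2-1 regions at the gene lay 8.47 to 27.9 kb from its start. HCC364 was set apart as higher in H3K27ac, a call made for 5.11% of genes: 5.94% of the window was covered in HCC364, against 0.845% in NCI-H441, 0.469% in NCI-H2087 and none in NCI-H358. In HCC364 a 4.69 kb acetylated peak had its summit 9.40 kb after the start, and NKX2-1 was bound 11.4 kb after it at 30.0-fold.

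**Figure D3:**
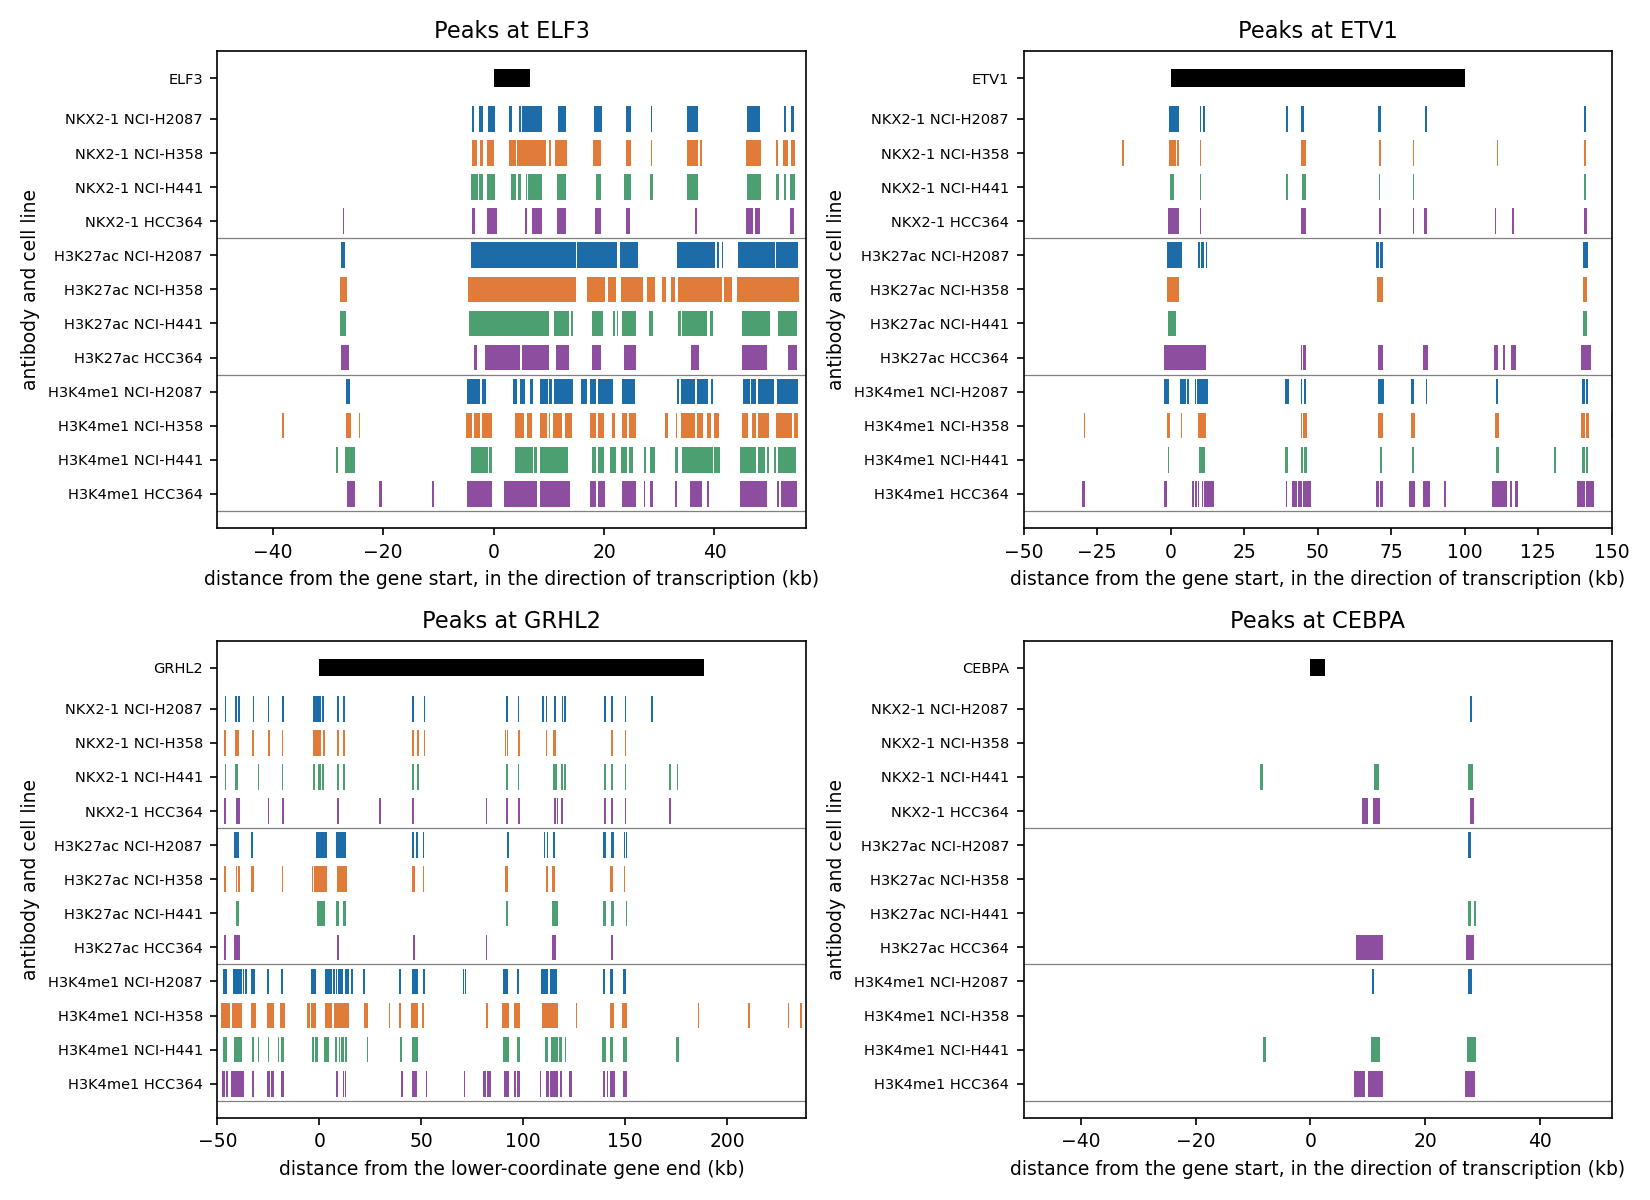
Peaks of NKX2-1, H3K27ac and H3K4me1 in 4 lines at ELF3, ETV1, GRHL2 and CEBPA by distance in kb from the gene start (GRHL2 from its lower-coordinate end); the black bar is the gene, each coloured block a peak, and peaks narrower than a visible width are widened. H3K27ac at the GRHL2 end is present in 3 lines and absent in HCC364, and the acetylated peak after CEBPA is widest in HCC364.

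Starts were scored within 1 kb of any listed start, or of either gene end where none was listed, as for GRHL2. H3K27ac was present there in all 4 lines at 6 of the 8 genes, where 50% of all genes had it. That share was 52.8% for genes with listed starts and 39.1% for genes scored at their ends. GRHL2 had it in 3 lines and not in HCC364, as 1.47% of genes did, and CEBPA in none, as 34.8% did. NKX2-1 lay at a start in all 4 lines at ELF3, EHF, KLF5 and ETV1, 4 of 8, where 32.0% of genes had it. At EHF this joined its listed starts: the first had no NKX2-1 peak in NCI-H2087 and the second none in HCC364, so neither was bound in all 4 lines. At KLF5 the first listed start had NKX2-1 in all 4 lines, in HCC364 by an overlap of 11 bp. The second KLF5 start had no NKX2-1 peak in NCI-H441 or HCC364. GRHL2 had NKX2-1 at a start in 3 lines, TFAP2A in 2, and GATA6 and CEBPA in none, as 40.0% of genes did. In NCI-H2087 H3K4me3 lay at a start of all 8 genes, against 66.8% of genes, and RNAPolII at 7, against 54.2%. At EHF the H3K4me3 peak lay only at the second listed start, with an overlap of 317 bp. H3K4me3 and RNAPolII were both present at 7 of the 8, against 53.2% of genes. The exception was CEBPA, which had an H3K4me3 peak of 0.958 kb on the side of CEBPA-DT, a divergent transcript, and no RNAPolII peak in its window. FOXA1 and FOXA2 both lay at the starts of GATA6, EHF, KLF5, GRHL2 and ETV1, 5 of 8, where 20.5% (FOXA1) and 21.7% (FOXA2) of genes had a peak. ETV1 alone of the 8 had SOX2 there, as 1.08% of genes did, and TFAP2A alone had c-Jun, as 5.50% did. EP300 lay at GRHL2 and ETV1, against 13.6% of genes, and CTCF at GATA6, ELF3 and ETV1, against 32.4%.

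The H3K27ac pattern of GRHL2 was also looked for in the related factors and epithelial markers. Of 25 factors of the same families and roles, 14 had H3K27ac at the start in all 4 lines, namely CEBPB, CEBPD, CEBPG, ELF1, ELK3, KLF3, KLF4, KLF6, KLF10, GRHL3, TFAP2C, ETV4, ETV5 and ETV6. GATA4, GATA5, CEBPE, ELF5 and TFAP2B had none in any line, and 6 had it in 1 to 3 lines, among them SPDEF in all but NCI-H358. Of those 6, GRHL1, OVOL1 and OVOL2 (3 of 25), had it in every line but HCC364, as did 2 of the 8 epithelial markers, CLDN7 and ESRP1. These 5 were named after their values were seen. OVOL1 and OVOL2 had no listed start and, like GRHL2, were scored at either gene end. GRHL1 is a paralog of GRHL2, OVOL1 and OVOL2 are zinc-finger factors of the epithelial state, CLDN7 is a tight junction protein and ESRP1 an epithelial splicing regulator. At least 1 region bound by NKX2-1 in all 4 lines lay at 22 of the 25 related factors, where 80.5% of all genes had one. The exceptions were GATA2, GATA3 and OVOL2, which fall outside the rule for named genes and were named after their values were seen. KLF6, with 11 regions bound in all 4 lines, and ELF1, with 8, had more than KLF5, with 3, in counts not scaled to window length.

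H3K27ac peaks were joined over gaps of up to 0.25 of the 50 kb flank to compare long acetylated domains. The longest domain at ELF3 was 58.4 kb in HCC364, 59.4 kb in NCI-H441, 84.4 kb in NCI-H2087 and 60.0 kb in NCI-H358, longer than 98.6% to 99.8% of the domains of each line. Domains were not cut at the window. That of NCI-H2087 ran to position 202090820, past the window end at 202067183, while those of the other lines ended inside it. The longest domain at EHF was 33.7 kb in HCC364, 35.5 kb in NCI-H441, 66.2 kb in NCI-H2087 and 66.4 kb in NCI-H358. ELF3 was thus long in every line, though in NCI-H358 EHF and TFAP2A were longer, and EHF was longer in NCI-H2087 and NCI-H358 than in the other 2. TFAP2A had 62.2 kb in NCI-H358 and 50.4 kb in NCI-H441, against 26.4 kb in NCI-H2087 and 27.1 kb in HCC364. KLF5 had 52.0 kb in NCI-H358, against 12.1 kb in NCI-H2087, 18.9 kb in NCI-H441 and 20.2 kb in HCC364. NCI-H358 therefore had the longest domain at both genes with this joining. With gaps of up to 5 kb it did not: KLF5 then had 19.4 kb in NCI-H358 and 20.2 kb in HCC364, and TFAP2A had 10.4 kb in NCI-H358 and 13.2 kb in NCI-H441. EHF then had 33.7 kb in HCC364, as before, 5.45 kb in NCI-H441, 6.17 kb in NCI-H2087 and 25.4 kb in NCI-H358, and ELF3 had 29.2 to 60.0 kb. At GRHL2 the longest domain was 7.65 kb in HCC364, against 16.3 kb in NCI-H441, 23.6 kb in NCI-H2087 and 24.9 kb in NCI-H358, and it lay outside the gene in each line. In the NCI lines this domain began before the window, and in HCC364 inside it. With gaps of up to 5 kb HCC364 was no longer the lowest there, since NCI-H441 had 5.10 kb.

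**Figure D4:**
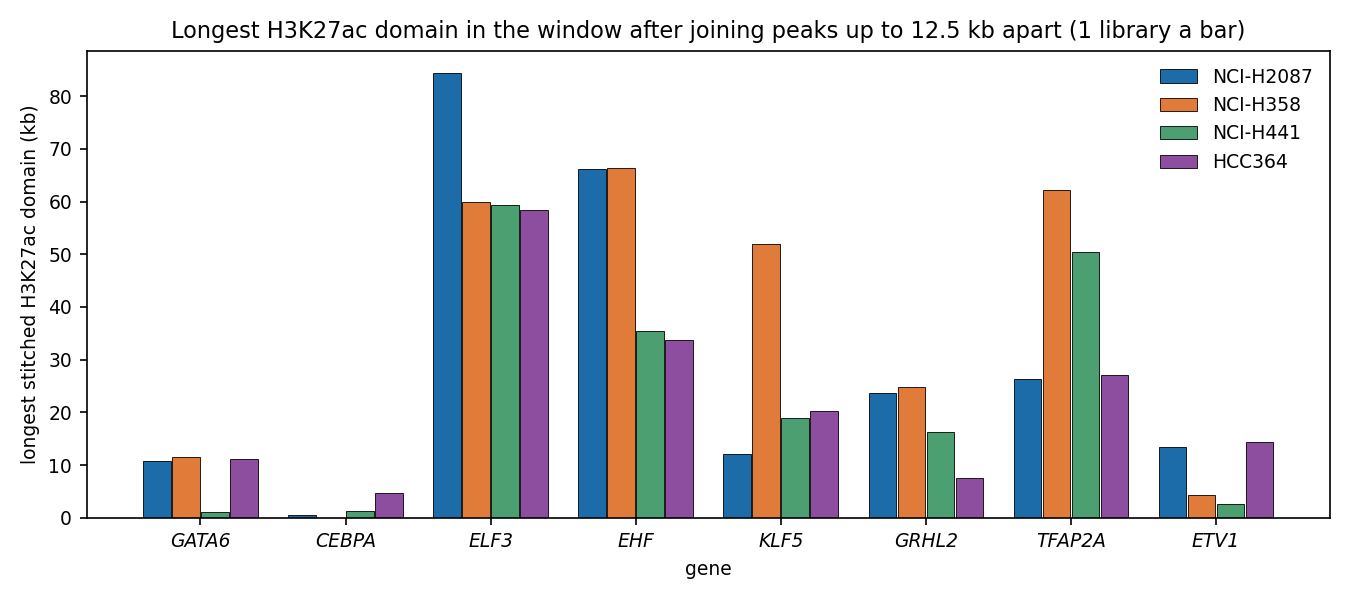
Length in kb of the longest H3K27ac domain overlapping each gene's window, after joining peaks across gaps of up to 0.25 of the flank, 1 bar per line and gene. Domains are not cut at the window. ELF3 reaches 58.4 to 84.4 kb in every line, KLF5 52.0 kb in NCI-H358 against 12.1 to 20.2 kb in the others, and CEBPA at most 4.69 kb.

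Pooled over the genes, NKX2-1 peaks overlapped H3K27ac of the same line more often than NKX2-1 peaks at large in each line. The share was 60 of 80 peaks (64.1 to 84.0%) against 52.5% of all peaks in NCI-H2087, 82.1% of 84 (72.3 to 89.6%) against 51.3% in NCI-H358, 61.1% of 90 (50.3 to 71.2%) against 46.4% in NCI-H441, and 73.9% of 69 (61.9 to 83.7%) against 51.6% in HCC364. The genes differed: the share was 92.9% to 100% at ELF3 in each line, but below that of all peaks at GRHL2 in HCC364 (38.9%), at GRHL2 (42.9%), CEBPA (33.3%), TFAP2A (46.2%), ETV1 (28.6%) and GATA6 (1 of 4) in NCI-H441, and at ETV1 in NCI-H358 (44.4%). At the genes the acetylated share was 57.9% where NKX2-1 was bound in 1 line, 59.5% in 2, 66.7% in 3 and 83.8% in 4, against 31.1%, 37.5%, 46.4% and 67.8% over all regions. The order was the same in both, and the share at the genes was higher at each step. Peaks of a gene share a locus and a library and are not independent, so the intervals are too narrow for a comparison between genes.

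In NCI-H2087 the partner factors were more frequent at these genes than at the median gene. FOXA1 covered 3.30 times, FOXA2 3.34 times and c-Jun 2.97 times the median gene's length per 100 kb, by the median over the 8, while CTCF covered 0.599 times and H3K4me3 0.836 times. Of the 80 NKX2-1 peaks, 71.3% (60.0 to 80.8%) overlapped FOXA2, against 58.6% of all 75657 NKX2-1 peaks, and 61.3% (49.7 to 71.9%) overlapped FOXA1, against 53.8%. CTCF was found at 11.3% (5.28 to 20.3%), against 20.6%, and 21.3% (12.9 to 31.8%) overlapped none of FOXA1, FOXA2, SOX2, c-Jun and EP300, against 32.1%. SOX2 overlapped 17.5% (9.91 to 27.6%) against 11.6%, EP300 16.3% (8.95 to 26.2%) against 9.24%, and c-Jun 31.3% (21.3 to 42.6%) against 27.6%. The intervals for FOXA1, SOX2, c-Jun and EP300 include the value of all peaks, while that for FOXA2 lies above it and that for CTCF below it, both by little. The 80 peaks are clustered in 8 windows of 1 library and are not independent. The intervals are therefore too narrow and decide none of these differences. With 10 kb flanks CTCF overlapped 9 of 50 peaks, 18.0%, and with 500 bp windows on summits FOXA2 overlapped 62.0% of 79. These shares depend on list length: with at most the 20000 peaks of highest q in each list, 25 NKX2-1 peaks remained, of which 56.0% overlapped FOXA2. The SOX2 (9262 peaks) and EP300 (7406 peaks) lists were shorter than that and stayed whole.

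Among the genes, FOXA2 overlapped 8 of 8 NKX2-1 peaks at KLF5 and at ETV1, 9 of 11 at EHF, 18 of 25 at GRHL2, 8 of 14 at ELF3, 2 of 4 at GATA6, 1 of 1 at CEBPA and 3 of 9 at TFAP2A. SOX2 was concentrated at ETV1, with 6 of 8 NKX2-1 peaks, against 3 of 8 at KLF5, 2 of 11 at EHF, 2 of 25 at GRHL2, 1 of 14 at ELF3 and none of 9 at TFAP2A, with an upper bound of 33.6%, of 4 at GATA6 or of 1 at CEBPA. ETV1 had 6 SOX2 peaks in its window, and 32.6% of genes had any. SOX2 lay in 5 of the 8 windows, EP300 in 6, where 44.1% of genes had it, and c-Jun in 7, where 65.7% did. All 14 SOX2 and all 15 EP300 peaks at the genes overlapped NKX2-1, where 96.5% and 96.3% did genome-wide. Peaks with all 5 partners numbered 3, or 3.75% of the 80 against 3.23% of all NKX2-1 peaks. They lay at ELF3 18.8 kb after the start, in the EHF gene body 22.6 kb after a start and in the ETV1 gene body 40.1 kb after the start.

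**Figure D5:**
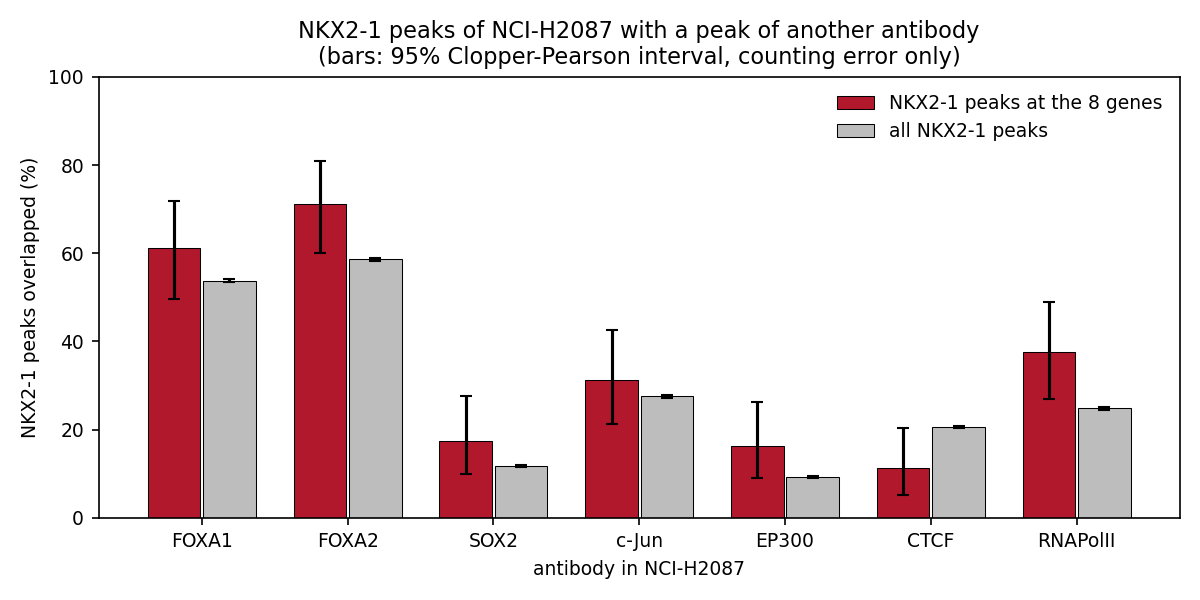
Percentage of NCI-H2087 NKX2-1 peaks that overlap a peak of another antibody, for the 80 peaks at the 8 genes (left bars) and all 75657 peaks (right bars), with 95% Clopper-Pearson intervals. FOXA2 is at 71.3% against 58.6% and CTCF at 11.3% against 20.6%.

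The local background was estimated from the fold and p of NKX2-1 peaks within 1 Mb of a gene and divided by the library's median. It had the same order of lines as the H3K27ac cover at GRHL2 but not at ELF3. At GRHL2 it was 1.03 in HCC364, against 1.23 in NCI-H441, 1.41 in NCI-H2087 and 1.63 in NCI-H358, the same order of the 4 lines as its H3K27ac cover. In the H3K27ac libraries the ratio there was 1.06 in HCC364, against 1.28 in NCI-H441, 1.49 in NCI-H2087 and 1.75 in NCI-H358. At ELF3, where cover was lowest in HCC364 and highest in NCI-H358, the background ratio was highest in HCC364 and lowest in NCI-H358. In the NKX2-1 libraries it was 1.41 in HCC364, 1.00 in NCI-H441, 1.13 in NCI-H2087 and 0.851 in NCI-H358. The H3K27ac libraries had 1.38, 1.04, 1.07 and 0.882 in the same order of lines. For the HCC364 calls at KLF5 (NKX2-1) and TFAP2A (H3K4me1) the HCC364 estimate was at the lowest value found in its library, so a lower local background could not have been seen. At CEBPA in the NKX2-1 libraries it was 0.820 in NCI-H358, against 0.709 in NCI-H441 (the lowest value found in that library), 0.796 in NCI-H2087 and 0.909 in HCC364. In the H3K27ac libraries at CEBPA it was 0.943 in HCC364, the highest, against 0.732 in NCI-H441 (again the lowest of its library), 0.705 in NCI-H2087 and 0.818 in NCI-H358. Its part in these results was not tested.

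The genes on another chromosome nearest to each member, by Euclidean distance over 12 log2 scaled values (3 antibodies in 4 lines), were LRATD2 and PPP1R14D for ELF3, at distances of 1.18 and 1.23. SPTBN1 and NCEH1 were nearest to EHF (0.752 and 0.912), SLC4A7 and ID2 to ETV1 (1.18 and 1.27), RAB40C and MAPK8IP3 to KLF5 (1.21 and 1.26), CCDC71L and IDH2 to GRHL2 (1.01 and 1.08), ZNF250 and AGMAT to TFAP2A (0.901 and 0.957), DUOX2 and SETD6 to GATA6 (1.39 and 1.51) and DOCK2 and MAGEA4 to CEBPA (1.83 and 2.34). The median distance to all genes was 4.91 to 10.9.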

How the data were processed

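Peak lists of 20 libraries (25 samples, with 5 inputs for which no file was analysed here) were read. The build is hg38 (GRCh38). MACS2 in versions 2.1.1 and 2.2.7.1, Bowtie2 2.2.9, Trimmomatic 0.36, SAMtools 1.9 and bedtools are named, with no role, per the submitters' processing notes. In the deposited lists the fold is a linear ratio over background, and p and q are deposited as −log10 values. The summit offset from the peak start is another deposited value, and the lowest −log10 q was 3.00 to 3.14. Depth is unknown, since no read totals were given.

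Peaks on chromosomes 1 to 22 and X overlapping a gene body plus 50 kb each side by at least 1 bp were counted with Python 3.11.15, pandas 2.3.3 and scipy 1.17.1. Covered length per 100 kb was set beside that of 19974 protein-coding genes of GRCh38.p14. Starts came from the RefSeq promoter table, and genes not in it were scored at either end. A line was set apart when its covered length plus 100 bp, divided by the list's gene median, was at least 2-fold above the highest or below the lowest of the other 3 lines. Local background was solved from fold and p (at least 99.96% of peaks within 0.01 of the written −log10 p). Interval counts were tested on simulated data. Named genes were all 8 members, related factors with H3K27ac at the start in all lines or none or an NKX2-1 region bound in all lines, and the 2 nearest genes per member, with GATA2, GATA3 and OVOL2 named outside it. The members and lists were chosen with earlier results of these data known.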

Additional observations from a re-analysis of the deposited data

How the results depend on the processing

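Of 140 comparisons of a summary value with an alternative, 111 stayed within 1.5 times (counts, ratios and lengths) or within the 95% interval (shares). Of the 7 line calls, that of CEBPA as higher in H3K27ac in HCC364 was kept under all 6 alternatives. For 5 of the others, a line called lower no longer had the lowest scaled value under some alternative. With 20000 peaks per list, its ratio to the lowest other line was 1.28 for KLF5 NKX2-1 and 2.09 for TFAP2A H3K4me1, both in HCC364. For CEBPA in NCI-H358 the ratio was then 1.18 (NKX2-1), 1.01 (H3K27ac) and 1.86 (H3K4me1). With 10 kb flanks it was 1.13 (NKX2-1) and 1.09 (H3K27ac) there. NCI-H358 had no peak of these antibodies at CEBPA. Its scaled value in these CEBPA ratios was therefore only the added 100 bp over the list's median, and its cover remained none. The share of NKX2-1 regions bound in all lines was 47.8% when HCC364 was left out and the other 3 lines had to be bound, and 33.9% to 37.1% when one of the others was left out. With 10 kb flanks the members-over-all-genes ratio was 2.18 for NKX2-1 and 4.01 for H3K27ac in HCC364, 3.18 for H3K4me1 in NCI-H2087 and 3.17 for H3K4me1 in HCC364, and 4 H3K4me1 calls of a line apart were made in place of 2. With 100 kb flanks the ratio was 1.78 for NKX2-1 in NCI-H358, 1.42 for H3K27ac in NCI-H441, 1.22 for H3K27ac in HCC364 and 1.61 for H3K4me1 in NCI-H358, with 1 NKX2-1 call and 1 H3K4me1 call. With the 20000 peaks of highest q the ratio was 3.14 for NKX2-1 in NCI-H2087 and 4.49 in NCI-H2087, 1.18 in NCI-H441 and 15.7 in HCC364 for H3K4me1. NKX2-1 peaks then overlapped FOXA2 in 56.0%, SOX2 in 44.0%, c-Jun in 64.0%, EP300 in 44.0% and CTCF in 4.00% of 25, with 4 NKX2-1 and 10 H3K4me1 calls. The SOX2 and EP300 lists held fewer than 20000 peaks and stayed whole, while the NKX2-1 list was cut. No share over all NKX2-1 peaks was computed at this setting. A −log10 q of at least 5 left 1 H3K4me1 call, and a 1.5-fold rule gave 6 calls for H3K27ac and 6 for H3K4me1. Joining over 5 kb gave a median domain of 8.38 kb in NCI-H2087, 13.9 kb in NCI-H358 and 5.27 kb in NCI-H441, since shorter gaps join fewer peaks. The cause of the other shifts was not tested. No paired analysis was possible because each line and antibody is 1 library. Library depth, unknown here, and list length limit the comparisons between lines.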
